A study of Mus musculus with 12 samples.

Results

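The 1650 regions described here were distal stretches of open chromatin that were more accessible in stromal cells of skin-draining peripheral lymph nodes (pLN) than in those of gut-draining mesenteric lymph nodes (mLN). A region was a member if it was an autosomal peak lying over 3 kb from the transcription start site (TSS) of any protein-coding gene, if the lowest of the 5 pLN libraries exceeded the highest of the 6 mLN libraries, and if the mean log2(RPKM + 1) of pLN minus that of mLN was at least 1. RPKM is the number of reads scaled to peak length and library size, and a log2 difference of 1 is a 2-fold difference on the scale of RPKM + 1. Of 42424 distinct peaks, 27299 were distal and autosomal, and the members were 6.04% of these. The members were thus chosen by the same pLN and mLN values, so the difference between the locations is given throughout as a description and was not tested.

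Open chromatin was profiled by ATAC-seq, in which a transposase inserts sequencing adapters into accessible DNA, in fibroblastic stromal cells sorted as CD45- CD24- CD31- gp38+ from wild-type BALB/c mice. The groups were pLN of specific pathogen-free mice (pLN-SPF, 3 libraries), pLN of germ-free mice (pLN-GF, 2 libraries), mLN of SPF mice (mLN-SPF, 3 libraries) and mLN of GF mice (mLN-GF, 3 libraries). The pLN were inguinal and axillary or popliteal nodes, and the mLN drained the small intestine and the colon and caecum. One source label of the pLN samples calls these skin-draining nodes mesenteric, and the sample titles were followed here. SPF mice carried CD90.1 and were 7 to 12 weeks old. GF mice were derived by caesarean section at another facility and were 6 to 10 weeks old. The study kept them in isolators there or at the facility of the SPF mice, without saying which for these libraries. Housing, line, age and, where it differed, facility cannot be told apart. The labels do not say that the libraries of a group came from separate animals, and the p-values below measure the spread between libraries only.

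Lymph node stroma includes fibroblastic reticular cells, which build the scaffold on which lymphocytes migrate and secrete chemokines and survival factors, and perivascular and adventitial cells around the vessels. The mesenchyme of a skin-draining node and that of a gut-draining node arise in different parts of the embryo, and fibroblasts are known to keep expressing transcription factors of the site where they arose. Distal accessible regions include many enhancers, which are bound by transcription factors and act on promoters at a distance in the same chromosome. A peak is assigned below to the gene with the nearest protein-coding TSS, which need not be the gene it acts on.

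Sequences were read from the GRCm38 reference (RefSeq assembly, plus strand unless stated, 5′ to 3′). The first 3 members shown have differences near 3 and are among those with the widest gap between the nodes, and the central 300 bases of each peak are given. Capitals mark matches to the motifs TTGGCA (part site of nuclear factor I, NFI), TTGCNNAA (C/EBP) and the NF-kB consensus, which is GGGA, any base, TT, any base and CC, on either strand.
Tbx15 member, chr3:99292680-99292979: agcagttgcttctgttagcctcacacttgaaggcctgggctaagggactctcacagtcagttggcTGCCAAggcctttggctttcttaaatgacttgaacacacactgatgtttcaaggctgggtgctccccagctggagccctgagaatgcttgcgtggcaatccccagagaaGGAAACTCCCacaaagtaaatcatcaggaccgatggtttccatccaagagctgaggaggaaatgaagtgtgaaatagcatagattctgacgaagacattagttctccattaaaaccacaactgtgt
Ust member, chr10:8618715-8619014: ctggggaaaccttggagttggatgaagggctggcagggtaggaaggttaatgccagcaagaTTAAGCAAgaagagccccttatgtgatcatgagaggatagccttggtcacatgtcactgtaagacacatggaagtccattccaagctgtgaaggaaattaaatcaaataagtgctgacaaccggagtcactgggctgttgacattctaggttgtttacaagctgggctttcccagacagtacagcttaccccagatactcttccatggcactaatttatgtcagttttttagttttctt
Spag17 member, chr3:99793659-99793958: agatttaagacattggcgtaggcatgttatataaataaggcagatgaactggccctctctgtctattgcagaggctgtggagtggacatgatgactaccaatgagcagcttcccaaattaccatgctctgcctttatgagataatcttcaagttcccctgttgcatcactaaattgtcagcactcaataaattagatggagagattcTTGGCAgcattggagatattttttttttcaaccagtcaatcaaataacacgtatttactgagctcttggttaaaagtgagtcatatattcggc

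The NF-kB consensus was present in the central 300 bases of 134 members, and 11 of them are shown by 30 bases around the match, in capitals, on the strand of the match. They were picked after the values were seen, as the 8 with a difference above 2 and 3 near genes of the lists below.
Tbx15, chr3:99292844-99292873, minus strand: tttactttgtGGGAGTTTCCttctctgggg
Pum3, chr19:27617757-27617786, plus strand: agggccatttGGGACTTTCCaagtcatatc
4930503B20Rik, chr3:146646401-146646430, plus strand: atcaagagcaGGGATTTTCCatcaatttcc
Adcy8, chr15:64891473-64891502, plus strand: ctgagcaatgGGGATTTTCCaggtttattc
Flrt2, chr12:94346112-94346141, plus strand: tgattcatagGGGACTTTCCcatggcattt
Ripk2, chr4:16198897-16198926, minus strand: gcagtggagtGGGAATTTCCccagtatttt
Sycp3, chr10:88436128-88436157, minus strand: catgtgtgcaGGGACTTTCCtggatgtgaa
Ntm, chr9:29371977-29372006, plus strand: agagcagagtGGGAGTTCCCaggggcaggg
Meox2, chr12:37142168-37142197, plus strand: cagaggaagaGGGAATTCCCtgggtaacca
Has2, chr15:56616142-56616171, minus strand: acagtaagcaGGGACTTCCCagactacaaa
Msx1, chr5:37917384-37917413, plus strand: tcaggctattGGGAGTTTCCagggtagggc

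The members were at low or intermediate levels in mLN and at intermediate or high levels in pLN. Median RPKM over the members was 29.7, 32.1 and 29.5 in the pLN-SPF libraries and 34.0 and 32.7 in the pLN-GF libraries, against 10.4, 15.5 and 9.89 in the mLN-SPF libraries and 13.2, 13.9 and 9.41 in the mLN-GF libraries. Medians over all distal autosomal peaks lay between 21.6 and 25.4 RPKM in the 11 libraries. The members held 2.86 to 3.46% of the reads in peaks of a pLN library and 0.997 to 1.71% of those of an mLN library. The mean of mLN was below the 10th percentile of distal peaks, 11.6 RPKM, in 775 members (47.0%), and the mean of pLN was above their 75th percentile, 33.3 RPKM, in 745 members (45.2%).

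**Figure D1:**
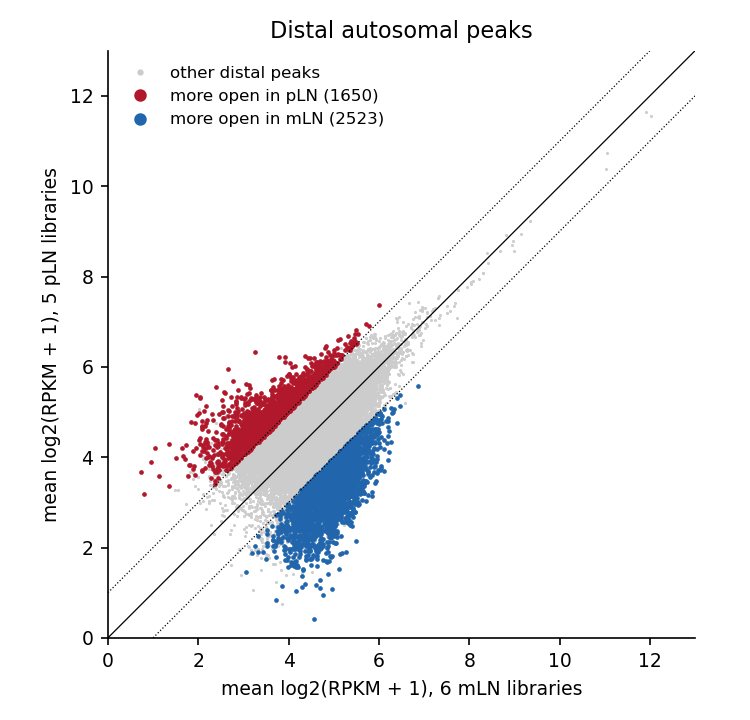
Mean log2(RPKM + 1) over the 5 pLN libraries (vertical axis) against the mean over the 6 mLN libraries (horizontal axis) of each distal autosomal peak, with the 1650 members in red, the 2523 mLN-open peaks in blue and the others in grey. The solid line marks equal values and the dotted lines a difference of 1, and the members lie on or above the upper dotted line, where grey points are peaks whose pLN and mLN libraries overlapped.

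**Figure D2:**
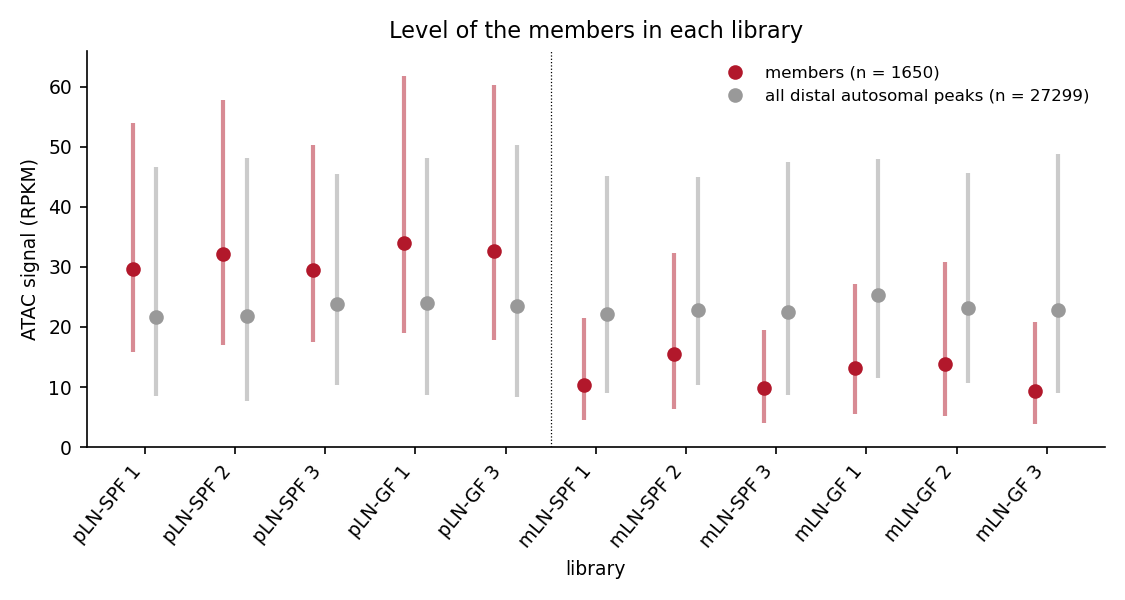
RPKM in each of the 11 libraries, with the pLN libraries left of the mLN libraries, for the members (red) and for all distal autosomal peaks (grey), where points are medians over peaks and bars span the 10th to the 90th percentile. Medians over the members were 29.5 to 34.0 RPKM in pLN and 9.41 to 15.5 RPKM in mLN.

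The difference between pLN and mLN had a median of 1.28 over the members and ran from 1.00 to 3.41, and its median over all distal autosomal peaks was 0.05. It exceeded 2 in 121 members and 3 in 7 members. The lowest pLN library was at a median of 1.29 times the highest mLN library, and 106 members had a ratio above 2. Without the condition on the size of the difference, 3126 distal peaks (11.5%) had all pLN libraries above all mLN libraries. The opposite rule, with all mLN libraries above all pLN libraries and a difference of at least 1, was met by 2523 distal peaks (9.24%), called mLN-open peaks below. Within the SPF libraries the members' median difference was 1.27 and within the GF libraries it was 1.35.

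Libraries contributed unequally to the boundary that the rule draws. The highest mLN value came from mLN-SPF 2 in 709 members, from mLN-GF 2 in 352, from mLN-GF 1 in 297 and from the other 3 mLN libraries in 292. The lowest pLN value came from pLN-SPF 3, the pLN library with the fewest reads, in 619 members. Without mLN-SPF 2 the rule found 2103 members, and without both mLN libraries numbered 2, an alternative chosen after seeing the data, it found 2656. Reads in peaks ran from 2886129 to 10380493 per library. A member had a median of 43 to 148 reads in a pLN library and of 13 to 41.5 reads in an mLN library, so that single mLN values rest on few reads. No member was at 0 reads in all mLN libraries, and 41 were at 0 in at least 1 of them.

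Members just inside and just outside the thresholds had nearly the same values. The member near Fam19a5 (chr15:87566487-87567089) had a difference of 1.00, and the peak near Gdnf (chr15:7838405-7839232), with 0.9997, was left out. A peak 2976 bp from the TSS of Rnase1, with a difference of 2.61, was left out by distance, while one 3044 bp from the TSS of Lect2, with 1.17, was kept. Near Gldc the lowest pLN and the highest mLN library were at 38.07 and 38.04 RPKM.

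The cells in the libraries were checked by the peaks within 1 kb of the TSS of marker genes. Of 10 markers of non-endothelial stroma, 8 had such a promoter peak, with summed levels of 303 to 409 RPKM in pLN libraries and 324 to 419 RPKM in mLN libraries, while Pdpn and Ccl19 had none. Single markers moved both ways, and 4 of the 8 were higher in pLN. The Cd34 promoter averaged 43.5 RPKM in pLN and 65.7 RPKM in mLN, and that of Cxcl13 18.5 and 6.95 RPKM. None of 6 hematopoietic, 4 epithelial, 4 skeletal muscle or 4 adipocyte markers had a promoter peak. Of 6 blood endothelial markers, Pecam1, Cdh5 and Tie1 had none, and the other 3 summed to 38.8 to 52.4 RPKM in pLN and 47.5 to 77.1 RPKM in mLN. The 2 of 4 lymphatic endothelial markers with a promoter peak summed to 24.1 to 73.4 RPKM in pLN and 41.2 to 78.9 RPKM in mLN, and the 1 of 3 Schwann cell markers to 31.2 to 42.0 RPKM in pLN and 32.5 to 51.7 RPKM in mLN. Of 6 perivascular markers, Rgs5, Kcnj8, Myh11 and Notch3 had promoter peaks, and their sum did not overlap between 163 to 213 RPKM in pLN libraries and 107 to 147 RPKM in mLN libraries. The promoter of Rgs5, a regulator of G protein signaling in pericytes, averaged 34.9 RPKM in pLN and 15.2 RPKM in mLN. The perivascular sum moved with location as the members did, and its part in the members' differences was not tested. In sorted bulk cells, more cells of a type in pLN and more open chromatin per cell cannot be told apart.

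The members lay far from genes. The median distance to the nearest protein-coding TSS was 68166 bp, against 42201 bp for mLN-open peaks and 38191 bp for all distal autosomal peaks. A distance over 100 kb was found in 38.5% of members, 27.4% of mLN-open peaks and 24.7% of distal peaks. By annotation 971 members (58.8%) were intergenic, 620 (37.6%) lay in introns, 43 in coding exons and 16 in UTRs. They were 489 bp wide at the median, against 344 bp for mLN-open and 429 bp for all distal peaks, and their central 300 bases had a median GC content of 45%, against 47.3% and 48.0%. When distal peaks were split into 4 bins of GC content, the lowest bin held 42.1% of the members. The share of a chromosome's distal peaks that were members ran from 4.12% on chromosome 7 to 7.35% on chromosome 14.

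The largest difference, 3.41, belonged to an intergenic member 192 kb upstream of Tll1, which encodes a tolloid-like metalloprotease that processes matrix and BMP antagonists (chr8:64397947-64398212). It had 49.5, 47.1 and 41.8 RPKM in pLN-SPF and 26.6 and 41.5 RPKM in pLN-GF, against 0, 20.1 and 5.30 RPKM in mLN-SPF and 2.98, 1.17 and 2.03 RPKM in mLN-GF. The library mLN-SPF 2 stood near the lowest pLN library and the other mLN libraries stood far below it. An intergenic member 91.6 kb upstream of Spag17, a gene of the ciliary axoneme (chr3:99793628-99793988), had 28.8, 38.5 and 50.7 RPKM in pLN-SPF and 42.4 and 38.2 RPKM in pLN-GF, against 5.93, 2.55 and 5.86 RPKM in mLN-SPF and 2.92, 2.58 and 0.995 RPKM in mLN-GF. Its difference was 3.29, and the gap between the locations was wide, the lowest pLN library being 4.86 times the highest mLN library.

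An intergenic member near Ust, the uronyl 2-O-sulfotransferase of chondroitin and dermatan sulfate (chr10:8618646-8619083), had 65.8, 77.1 and 61.2 RPKM in pLN-SPF and 49.8 and 52.4 RPKM in pLN-GF, against 6.22, 10.1 and 6.44 RPKM in mLN-SPF and 3.01, 4.61 and 3.69 RPKM in mLN-GF. The difference was 3.29 and the 11 libraries fell into a high and a low set with nothing between. The promoter peak of Ust did not separate the nodes, with 59.8 ± 10.4 RPKM in pLN and 57.7 ± 4.83 RPKM in mLN (mean ± SD over SPF and GF libraries, n = 5 and 6, here and below). The member 124 kb from Cldn1, a tight junction claudin (chr16:26247865-26248525), had 42.0, 40.8 and 24.2 RPKM in pLN-SPF and 44.0 and 46.7 RPKM in pLN-GF, against 0.705 to 5.85 RPKM in the mLN libraries. Here the lowest pLN value was set by pLN-SPF 3 alone.

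Among the other members with differences near 3, one lay in an intron of Acvr1, a type I receptor for BMP and activin ligands (chr2:58436823-58437289, nearest TSS Gm17409). It was among the most open of the large differences, with 79.7, 84.6 and 41.3 RPKM in pLN-SPF and 111 and 99.9 RPKM in pLN-GF, against 6.66, 12.6 and 3.02 RPKM in mLN-SPF and 8.48, 13.3 and 12.7 RPKM in mLN-GF. Another lay in an intron of Srgap3, a GTPase activator of the Slit-Robo pathway (chr6:112733012-112733579, nearest TSS Rad18), at 29.9 ± 4.02 RPKM in pLN and 3.15 ± 1.5 RPKM in mLN. A member 24.8 kb from Eef1a1, which encodes translation elongation factor 1A (chr9:78513732-78514133), had a ratio of 4.34 between the lowest pLN and the highest mLN library, with 27.7 ± 3.84 RPKM in pLN and 3.94 ± 1.80 RPKM in mLN.

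Peaks near genes of limb and body wall transcription factors were compared with those near gut factors. Of 30 limb and body wall genes with a distal peak, 10 had a member, where 14.2% of all genes with a distal peak had one, and 20 of their 127 distal peaks were members (15.7%), against 6.04% of all distal peaks. Of these 127 peaks 10 were mLN-open (7.87%), against 9.24% of all distal peaks. Of 18 genes of gut and splanchnic mesoderm factors, 2 had a member, with 2 of 110 peaks (1.82%), while 20 of these 110 were mLN-open. With any TSS within 100 kb of a member, 10 of 32 limb and body wall genes and 0 of 21 gut genes had one. The lists were drawn up with results of these data known, and no test of them was made. Shares of genes, here and below, are not matched for the number of distal peaks per gene. The 9 Hox genes nearest to a distal peak had no member among 14 peaks.

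The T-box factor Tbx15, which acts in limb and skin mesenchyme, had 5 distal peaks and all were members (chr3:99233525-99301571), with differences of 1.71 to 3.17. The intronic member at chr3:99263185-99263937 had 40.9, 45.3 and 38.6 RPKM in pLN-SPF and 48.3 and 61.4 RPKM in pLN-GF, against 2.33, 8.80 and 6.55 RPKM in mLN-SPF and 5.61, 4.33 and 1.43 RPKM in mLN-GF. Every mLN library was under 9 RPKM there. The intronic member at chr3:99292589-99293069, whose central sequence is printed above, had 31.6, 30.0 and 36.7 RPKM in pLN-SPF and 33.3 and 40.6 RPKM in pLN-GF, against 3.24, 3.44 and 5.86 RPKM in mLN-SPF and 5.49, 1.29 and 3.36 RPKM in mLN-GF. Its lowest pLN library was 5.12 times its highest mLN library, the largest such ratio of the 1650. Together with a member toward Spag17 these peaks formed a run of 6 members over 360 kb (chr3:99233525-99593339) with no other distal peak between them.

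**Figure D3:**
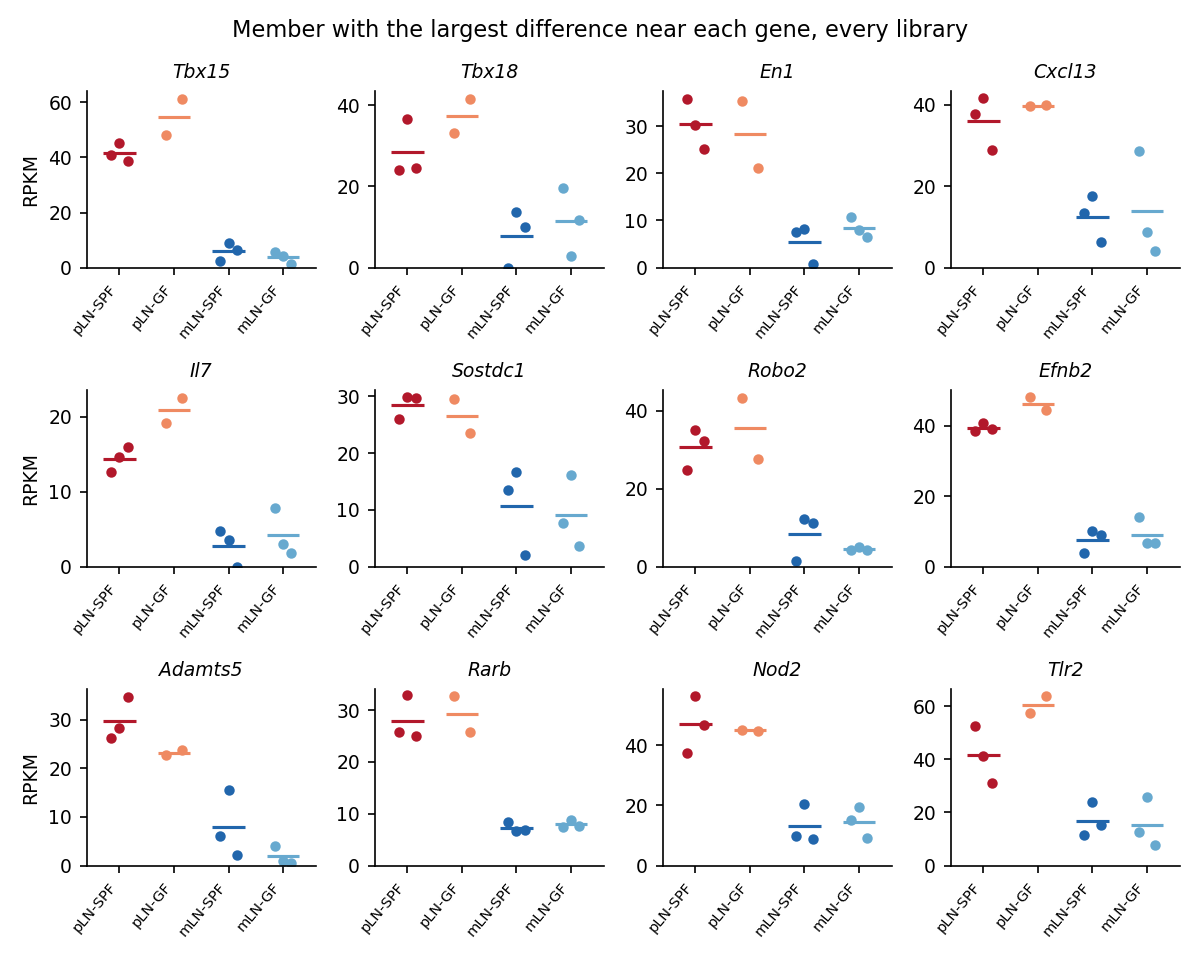
RPKM of each library at the member of largest difference near each of 12 genes, with pLN-SPF, pLN-GF, mLN-SPF and mLN-GF from left to right, points for libraries and lines for group means. At the Tbx15 member the pLN libraries sit between 38.6 and 61.4 RPKM and the mLN libraries between 1.43 and 8.80 RPKM.

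Tbx18, a T-box factor of somites, epicardium and pericytes, had 4 members in a run of 46.7 kb (chr9:87849151-87895835), with differences of 1.38 to 2.12. The member with the largest difference was a narrow peak with 24.1, 36.7 and 24.4 RPKM in pLN-SPF and 33.1 and 41.6 RPKM in pLN-GF, against 0, 13.8 and 9.88 RPKM in mLN-SPF and 19.7, 2.91 and 11.8 RPKM in mLN-GF. The mLN libraries were widely scattered at it. En1, the engrailed homeobox factor of ventral limb ectoderm and of a dermal fibroblast lineage, had a member 5.65 kb upstream (chr1:120596538-120597006) with 29.6 ± 6.43 RPKM in pLN and 6.94 ± 3.33 RPKM in mLN, a difference of 2.12.

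Further members lay near factors of muscle, kidney and craniofacial precursors. The member near Six2 (chr17:85730401-85730854), a homeobox factor of kidney precursors, was at 29.5 ± 4.61 RPKM in pLN and 10.1 ± 2.89 RPKM in mLN. Eya1, a coactivator of the Six2 protein, held a member in an intron (chr1:14218753-14219068) with 30.0 ± 4.57 RPKM in pLN and 11.9 ± 3.42 RPKM in mLN. Meox2, a homeobox factor of limb muscle and vessels, and Msx1, a homeobox factor of limb and face, had members with differences of 1.37 and 1.11, and both hold the NF-kB consensus printed above. Both gut-list members were distant and at the weak end: the one near Hlx, 328 kb away, had a difference of 1.09 and the one near Meis1, also intergenic, of 1.00. Hlx also had an mLN-open peak, with a difference of -3.29, and Meis1 had 3.

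Genes of reticular cells and lymphoid organizers had members at 8 of 23 genes with a distal peak (34.8%), against 14.2% of all such genes. Members were 12 of their 118 peaks (10.2%), against 6.04% of all distal peaks. Of these peaks 11 were mLN-open (9.32%), near the 9.24% of all distal peaks. Il7, the survival cytokine of T cells, had a member 423 kb upstream (chr3:8036885-8037088) with 12.6, 14.6 and 16.0 RPKM in pLN-SPF and 19.2 and 22.5 RPKM in pLN-GF, against 4.77, 3.61 and 0 RPKM in mLN-SPF and 7.76, 3.05 and 1.76 RPKM in mLN-GF. Cxcl13, the chemokine that attracts B cells to follicles, had 4 members. The member 58.9 kb upstream (chr5:95897863-95898257) had 37.7, 41.7 and 29.0 RPKM in pLN-SPF and 39.7 and 40.0 RPKM in pLN-GF, against 13.3, 17.7 and 6.25 RPKM in mLN-SPF and 28.7, 8.66 and 4.09 RPKM in mLN-GF. Here mLN-GF 1 came within 1.01-fold of the lowest pLN library, pLN-SPF 3, and the other mLN libraries lay lower. Cxcl12, which retains lymphocytes and plasma cells in stromal niches, had a member 31.2 kb away (chr6:117199624-117200028) with 38.2 ± 15.4 RPKM in pLN and 12.9 ± 3.08 RPKM in mLN.

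Members also lay near Grem1, a BMP antagonist that marks a reticular cell subset, in an intron of its neighbour Fmn1 (chr2:113621725-113622192, difference 1.51), near Ch25h, the hydroxylase that makes 25-hydroxycholesterol (1.09), near Enpp2, which makes the migration factor lysophosphatidic acid (1.05), and in a coding exon of Clu, the chaperone clusterin (1.54). Genes of CD34+ stromal cells, the adventitial type, had members at 2 of 22 genes, with 2 of 108 peaks, and 16 of these peaks were mLN-open. With any TSS within 100 kb of a member, 4 of 25 had one. Perivascular and smooth muscle genes had members at 4 of 13 genes (30.8%), against 14.2% of all genes with a distal peak. Members were 5 of their 49 peaks (10.2%), against 6.04% of all distal peaks. Of these 49 peaks 3 were mLN-open (6.12%), against 9.24% of all distal peaks. The member 14.1 kb from Kcnj8, the potassium channel subunit of pericytes (chr6:142556950-142557540), had 44.6, 49.1 and 45.4 RPKM in pLN-SPF and 59.0 and 57.5 RPKM in pLN-GF, against 13.8, 20.2 and 7.75 RPKM in mLN-SPF and 29.5, 20.0 and 17.0 RPKM in mLN-GF. Pdgfrb, the PDGF receptor of pericytes and fibroblasts, held an intronic member with 57.2 ± 18.0 RPKM in pLN and 23.4 ± 11.1 RPKM in mLN. Epithelial, Schwann, muscle and adipocyte genes had no member among 24 peaks. Endothelial genes had members at 3 of 20 genes, near Erg, Cdh5 and Sox7, and at 5 of 22 with any TSS within 100 kb of a member. Of their 51 distal peaks 7 were members (13.7%), against 6.04% of all distal peaks, and 5 were mLN-open. Cdh5 was the nearest gene of 5 of these members. The member near Erg, an ETS factor of endothelium, was at 34.3 ± 3.94 RPKM in pLN and 6.76 ± 5.58 RPKM in mLN, where mLN-SPF 2 was at 18.0 RPKM and the other libraries between 2.83 and 5.39 RPKM. The summed promoter peaks of the blood endothelial markers were not higher in pLN, as given above. Of 7 hematopoietic genes only Ptprc, which encodes CD45, had members. They were 2 of the 21 peaks of this list (9.52%), against 6.04% of all distal peaks, and the nearer lay 411 kb from the Ptprc TSS. With any TSS within 100 kb of a member, 3 of 18 hematopoietic genes had one, and 1 of 21 epithelial, Schwann, muscle and adipocyte genes.

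In the BMP, GDF and TGF-beta list, members lay near 10 of 41 genes (24.4%), but were 14 of their 265 peaks (5.28%), below the 6.04% of all distal peaks, and 28 of these peaks were mLN-open. The gene of the BMP and Wnt antagonist Sostdc1 had a member 4.97 kb upstream (chr12:36308817-36309511) with 27.7 ± 2.82 RPKM in pLN and 9.91 ± 6.38 RPKM in mLN. The ligand gene Bmp2 (chr2:133282600-133283227) had a member with 15.7 ± 1.54 RPKM in pLN and 4.98 ± 1.97 RPKM in mLN. Members near the ligand genes Bmp3 and Gdf10 had 38.8 ± 14.0 and 24.5 ± 5.56 RPKM in pLN, against 12.6 ± 6.10 and 8.51 ± 3.76 RPKM in mLN. Wnt genes had members at 6 of 40 genes, with 6 of 185 peaks, and 21 of these peaks were mLN-open.

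Matrix genes had members at 10 of 50 genes, with 19 of 341 peaks (5.57%), below the 6.04% of all distal peaks, and 33 of these peaks were mLN-open. The member 28.0 kb upstream of Adamts5, an aggrecan-cleaving protease (chr16:85929638-85929957), had 26.2, 28.2 and 34.7 RPKM in pLN-SPF and 22.7 and 23.8 RPKM in pLN-GF, against 6.08, 15.5 and 2.20 RPKM in mLN-SPF and 4.12, 0.971 and 0.561 RPKM in mLN-GF. All 3 mLN-GF libraries were low and mLN-SPF 2 was the highest of the mLN libraries. Of the 21 distal peaks of Adamts5 this was the only member, and 5 others were mLN-open, with differences of -2.40 to -1.47. The member 52.2 kb upstream of Timp3, an inhibitor of matrix proteases, was at 27.6 ± 3.19 RPKM in pLN and 7.86 ± 1.24 RPKM in mLN. Members near Tnc (tenascin C), Has2 (hyaluronan synthase) and Col12a1 (a fibril-associated collagen) had largest differences of 1.35, 1.27 and 1.61. Genes of glycosaminoglycan sulfation and assembly had members at 11 of 26 genes, but with 12 of 171 peaks (7.02%), close to the 6.04% of all distal peaks. Counting any TSS within 100 kb of a member instead of the nearest TSS, 6 of 31 of these genes had one. Among them were Ust, described above, the heparan sulfate 3-O-sulfotransferase Hs3st3a1 (difference 1.81) and the 6-O-endosulfatase Sulf1 (1.37), which also had 4 mLN-open peaks.

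Axon guidance genes, which in other tissues steer growing axons and vessels, had members at 10 of 33 genes, with 19 of 264 peaks (7.20%), near the 6.04% of all distal peaks, and 35 of these peaks were mLN-open. With any TSS within 100 kb of a member, 4 of 33 genes had one. Robo2, a Slit receptor, had 5 of its 17 distal peaks among the members. The member 119 kb upstream (chr16:74530610-74530863) had 24.8, 35.1 and 32.2 RPKM in pLN-SPF and 43.3 and 27.7 RPKM in pLN-GF, against 1.53, 12.3 and 11.1 RPKM in mLN-SPF and 4.16, 4.90 and 4.24 RPKM in mLN-GF. The ephrin ligand gene Efnb2 had a member (chr8:8498762-8499557) with 42.1 ± 4.01 RPKM in pLN and 8.30 ± 3.46 RPKM in mLN, a difference of 2.29. Of its 18 distal peaks 2 were members and 3 were mLN-open, with differences of -2.11 to -1.53. Members near Nrp2, a semaphorin and VEGF-C coreceptor, and Epha3, an ephrin receptor, had differences of 1.92 and 1.43.

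Genes of innate sensing and NF-kB signaling had members at 8 of 35 genes (22.9%), against 14.2% of all genes with a distal peak. Members were 11 of their 129 peaks (8.53%), against 6.04% of all distal peaks. Of these peaks 13 were mLN-open (10.1%), near the 9.24% of all distal peaks. The gene of the adaptor kinase Ripk2 had a narrow member (chr4:16198874-16199073) with 15.3, 13.8 and 18.0 RPKM in pLN-SPF and 37.3 and 25.8 RPKM in pLN-GF, against 0, 11 and 0 RPKM in mLN-SPF and 5.28, 13.2 and 13.5 RPKM in mLN-GF. The pLN-SPF and the higher mLN libraries all but met, at a ratio of 1.02. The sensor gene Nod2, whose product binds muramyl dipeptide and signals through Ripk2, held a member in an intron (chr8:88662308-88662621) with 46.1 ± 6.84 RPKM in pLN and 13.8 ± 5.24 RPKM in mLN. The member 3.63 kb upstream of Tlr2, a receptor for bacterial lipoproteins, was at 49.2 ± 13.1 RPKM in pLN and 16.1 ± 7.18 RPKM in mLN, and an intronic one at Tlr4, the receptor for lipopolysaccharide, at 28.9 ± 6.06 RPKM in pLN and 9.80 ± 4.21 RPKM in mLN. The member of largest difference near Tnfaip3, an inhibitor of NF-kB, had a difference of 1.14.

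The members spread over 1219 of 8560 genes with a distal peak (14.2%). Of these genes, 916 had 1 member and 87 had at least 3, and genes with a member had a median of 5 distal peaks, against 2 over all genes. The most, 6 of 17, lay near Cntnap5a, a neuronal cell adhesion gene, and Tbx15, Robo2, Flrt2, St6galnac3, Cdh5, Anks1b, Cdh4, Itga8 and Rwdd3 had 5 each. Itga8, the alpha-8 integrin of mesenchymal cells, had 5 of its 8 peaks in a run of 138 kb (chr2:12188488-12326458), and St6galnac3, a sialyltransferase, had 5 of 6 in a run of 110 kb (chr3:153489112-153598911). The 5 members nearest to Cdh5, the endothelial cadherin, lay 78.5 to 565 kb upstream of it, and its TSS had no promoter peak. A run of 6 members over 158 kb near Slc6a12, Iqsec3 and A2m (chr6:121403142-121561150) had differences of only 1.00 to 1.32. Of the genes with a member, 295 also had an mLN-open peak (24.2%), against 20.8% of all genes with a distal peak. These 295 were 16.5% of the genes with an mLN-open peak, where 14.2% of all genes with a distal peak had a member. These shares are not matched for the number of distal peaks per gene, so they do not show whether the overlap was high or low. Genes named here with both were Adamts5, Cldn1, Cntnap5a, Col12a1, Efnb2, En1, Flrt2, Hlx, Meis1, Nrp2, Rad18, Slc6a12, Sulf1, Tlr2, Tnc and Ust.

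Promoter peaks of the same genes were compared in the same way. Of 12340 autosomal peaks within 1 kb of a TSS, 58 (0.470%) met the same separation and size, near 57 genes. Of the 1219 genes with a member, 900 had a promoter peak, with a median difference of 0.10, and 570 of these promoters (63.3%) were higher in pLN on average, against a median of -0.03 and 2696 of 5843 promoters (46.1%) over all genes with a distal peak. For the genes with at least 3 members the median was 0.22 over 76 promoters, of which 62 were higher in pLN, and for genes with an mLN-open peak it was -0.02. Of the 57 genes whose promoter met this separation and size, 42 had a distal peak and so could have a member. Of all genes with a distal peak, 14.2% had a member. Such a promoter was found at 1.78% of the 900 genes with a member, against 0.719% of the 5843 genes. Counted over genes, 16 of the 57 also had a member, and they are named here after their values were seen. They were En1, Tbx15, Sostdc1, Reg3g, Olfm4, Tbx18, Cxcl13, Lingo2, Dsc2, Akap2, Zmynd8, Tank, Il16, Trpm1, Tacr1 and Mei4. The En1 promoter (chr1:120602001-120602535) was at 41.3 ± 7.53 RPKM in pLN and 6.32 ± 3.79 RPKM in mLN, that of Tbx15 (chr3:99253023-99254040) at 56.0 ± 6.25 RPKM in pLN and 9.95 ± 1.58 RPKM in mLN, and that of Sostdc1 (chr12:36313993-36314245) at 46.8 ± 10.1 RPKM in pLN and 8.84 ± 2.43 RPKM in mLN. The Cxcl13 promoter, at 18.5 ± 3.38 RPKM in pLN and 6.95 ± 0.84 RPKM in mLN, differed by 1.28. At Il7, Itga8 and Adamts5 the promoter differences were 0.17, 0.23 and 0.06, while their members differed by up to 2.25, 1.48 and 2.71.

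A set of 45 short motifs was counted on both strands in the central 300 bases of each peak, and the shares are descriptions without a test. The NF-kB consensus, as spelled out above, was in 8.12% of members, 0.872% of mLN-open peaks and 4.04% of all distal autosomal peaks. At matched GC content other distal peaks held it in 3.77%. In the 4 bins of GC content from low to high the shares were 8.35, 6.55, 10.4 and 7.37% of members and 3.80, 3.49, 4.34 and 3.45% of other distal peaks. Members with and without it had median differences of 1.24 and 1.29. The NFI part site TTGGCA was in 615 members (37.3%), 18.2% of mLN-open and 25.5% of distal peaks, and in 26% of other distal peaks of the same GC content. Of the 1650 members, 42 held both motifs, against 247 of 25649 other distal peaks. At least 1 of them was in 707 members (42.8%), against 27.6% of other distal peaks.

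By the ratio of the share of members to that of all distal peaks, the PBX and HOX (1.57), TCF and LEF (1.56) and TAATTA (1.51) motifs stood between the NF-kB consensus (2.01) and the NFI part site (1.46). The homeobox core TAATTA was in 9.94% of members and 5.23% of mLN-open peaks, with 7.99% of GC-matched other distal peaks, and the PBX and HOX motif TGATTNAT in 10.1% and 5.98%, with 7.59%. The C/EBP motif TTGCNNAA was in 23.9% of members, 16.7% of mLN-open and 18.7% of distal peaks. In the 4 bins of GC content from low to high it was in 31.1, 21.0, 18.6 and 13.7% of members. The shares of other distal peaks in these bins were 26.1, 20.8, 15.8 and 10.7%. The TCF and LEF motif CTTTGAT was in 6% of members and 3.84% of both mLN-open and distal peaks. The AP-1 motif TGANTCA was in 25.0% of members, against 34.9% of mLN-open and 24.3% of distal peaks. The KLF motif CCACCC was in 16.4% of members, 29.7% of mLN-open peaks and 20.2% of GC-matched other distal peaks. A match to the CTCF motif was found in 1 member (0.0606%), against 2.71% of distal peaks. It was also rare in mLN-open peaks (0.198%), so its near absence was not particular to the members. A match names letters in a window and not a bound site.

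**Figure D4:**
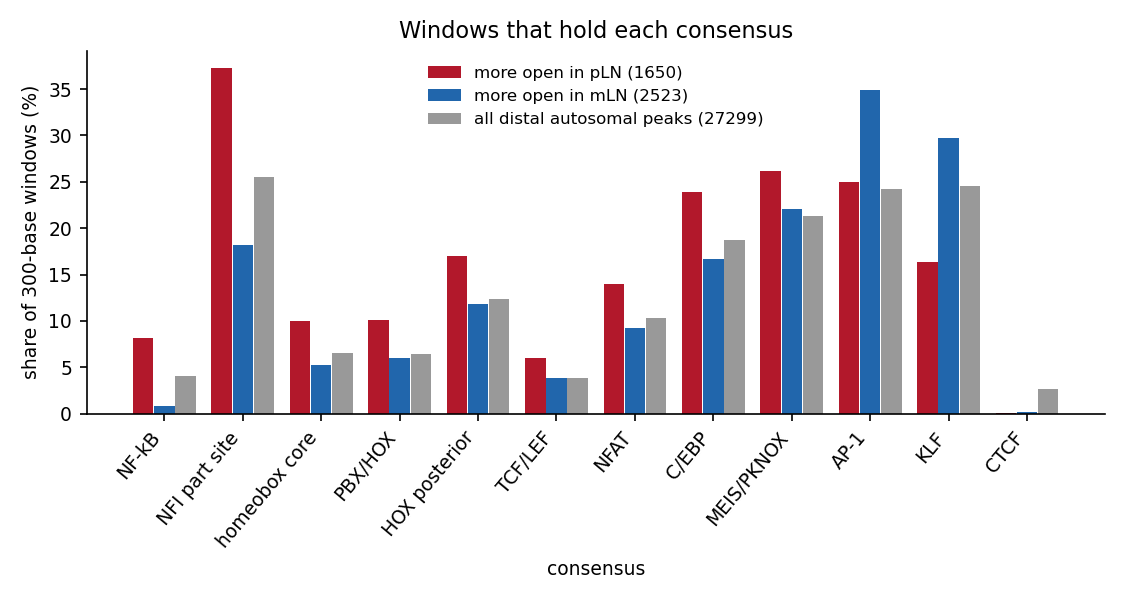
Share of peaks, in percent, with a match to each motif in the central 300 bases, for members (red), mLN-open peaks (blue) and all distal autosomal peaks (grey). The NF-kB consensus stands at 8.12% of members and 0.872% of mLN-open peaks, and the KLF motif at 16.4% of members and 29.7% of mLN-open peaks.

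Members with larger differences were narrower and lower in mLN. The 1222 members with a difference of 1 to 1.5 had median means of 32.6 RPKM in pLN and 14.0 RPKM in mLN, and the 121 with 2 or more had 29.9 RPKM in pLN and 5.89 RPKM in mLN. Median width was 511.5 bp in the first band and 352 bp in the last. The level in pLN thus changed little between the bands, and the size of the difference, which the rule used, came with a lower mLN level.

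The study also asked whether microbial colonization shapes the stroma of each node, which SPF and GF mice compare. This contrast was not used by the rule, although the rule limits how far libraries of a node can spread at a member. A linear model of log2(RPKM + 1) with 4 group means was fitted to all 42424 peaks with limma, and calls required a 2-fold difference besides a p adjusted by Benjamini-Hochberg under 0.05. For SPF minus GF in pLN, 0 members were called, against 0.00707% of all peaks (3). At an unadjusted p under 0.05 were 43 members (2.61%), against 6.21% of all peaks. Of the 1650 members, 3 (0.182%) were at such a p and higher in SPF, against 2.96% of all peaks, and these were 6.98% of the members and 47.6% of the peaks with such a p. In mLN 0 members were called, against 0.00236% of all peaks (1), and 125 members (7.58%) had an unadjusted p under 0.05, against 8.11% of all peaks. There 46 members (2.79%) were at such a p and higher in SPF, against 2.98% of all peaks, which was 36.8% of the members and of the peaks with such a p. For the interaction, the pLN housing difference minus the mLN one, 0 members and 0 of all peaks (0%) were called, and 34 members (2.06%) had an unadjusted p under 0.05, against 3.50% of all peaks. With a positive value 6 members (0.364%) were at such a p, against 2.31% of all peaks, which was 17.6% of the members and 65.9% of the peaks with such a p. A count of 0 does not show that no member differed.

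The median housing difference over the members, SPF minus GF, was -0.14 in pLN, with 532 of 1650 positive, against -0.05 over distal autosomal peaks and 0.27 over mLN-open peaks. In mLN it was -0.05, with 735 positive, against -0.06 over distal and -0.11 over mLN-open peaks, and its direction turned, to between 0.01 and 0.08 with mLN-SPF 1, mLN-SPF 3, mLN-GF 1 or mLN-GF 2 left out and to 0.07 after quantile normalization. The median standard error of a member was 0.38 in pLN and 0.34 in mLN, and pLN-GF had 2 libraries.

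**Figure D5:**
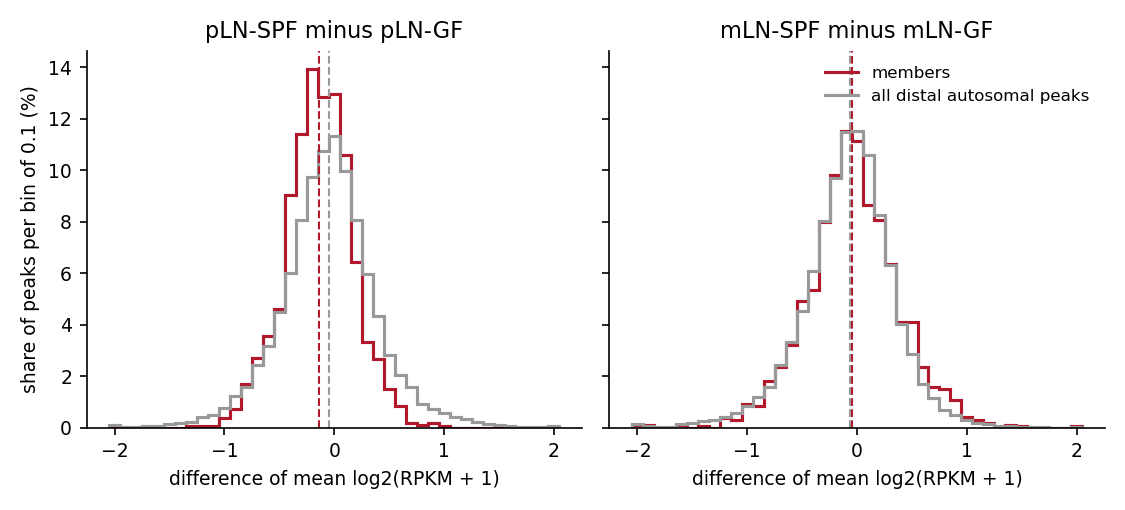
Share of peaks, in percent, by the difference SPF minus GF of mean log2(RPKM + 1) in pLN (left) and in mLN (right), for members (red) and all distal autosomal peaks (grey), with dashed lines at the medians and the outermost bins also holding values beyond the axis. Member medians stand at -0.14 in pLN and -0.05 in mLN, against -0.05 and -0.06 over distal peaks.

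The member with the smallest p in pLN lay 247 kb from Olfm4, which encodes the secreted glycoprotein olfactomedin 4 (chr14:80247416-80247963). It had 27.5, 30.2 and 25.6 RPKM in pLN-SPF and 64.3 and 53.2 RPKM in pLN-GF, a difference of -1.05 ± 0.27 (SE, limma adjusted p = 0.343), and 14.6, 19.5 and 13.5 RPKM in mLN-SPF and 21.7, 22.7 and 13.8 RPKM in mLN-GF. The pLN groups did not overlap and the mLN groups did. With limma voom on recovered read counts it was the only member called, at an adjusted p of 0.0431, where 51 of all peaks (0.120%) were called, 50 of them lower in SPF. In mLN an intronic member of Sh3rf3, a SH3 domain ubiquitin ligase (chr10:58833746-58834167), had 10.6, 10.5 and 11.7 RPKM in mLN-SPF and 21.9, 25.8 and 29.8 RPKM in mLN-GF, a difference of -1.16 ± 0.19 (SE, limma adjusted p = 0.177). An intronic member of Ahi1, a gene of the primary cilium (chr10:21023373-21023565), differed the other way, with 6.05, 6.68 and 12.8 RPKM in mLN-SPF and 2.73, 1.61 and 0 RPKM in mLN-GF, a difference of 2.09 ± 0.48 (SE, limma adjusted p = 0.314). At Tbx15 the housing differences in pLN ran from -0.38 to -0.03 over the 5 members, with limma adjusted p of 0.955 to 0.997.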

How the data were processed

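ATAC-seq libraries of sorted fibroblastic stromal cells from pLN and mLN of SPF and GF mice were analysed. The authors kept uniquely mapped reads (STAR 2.5.3a, mm10/GRCm38), discarded duplicates (Picard), ran MACS2 on each library in broad mode, joined peaks that overlapped and deposited RPKM values per peak. A shift of reads to the transposase insertion site is not given in the sources used here, and such a shift would move peak edges by a few bases. Merging peaks over all libraries lets a peak called in 1 library be measured in every library. The deposited log2 fold changes, adjusted p-values and nearest genes of the authors' own comparisons were not used.

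Of 42434 entries, 10 were repeats. Of the 12 value columns, 1 (pLN-GF 2) equalled the mean of other columns in 42424 peaks and was left out as a column of no sample, leaving 11 libraries. Whole reads were recovered from the RPKM in 100.0% of values (tolerance 0.02 reads). Values were analysed as log2(RPKM + 1), on which folds of low peaks are understated. TSSs were those of protein-coding transcripts in GENCODE vM21. Housing and its interaction with location were tested over all peaks with limma 3.58.1 in R 4.3.3 (trend, 4 group means), and the test was checked on simulated data. Motifs were counted with Python 3.11.15 in the central 300 bases, on both strands. A marker promoter was a peak within 1 kb of the gene's TSS. Depth ran from 2886129 to 10380493 reads in peaks, and differences that rest on few reads per peak are uncertain accordingly.

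The members, gene lists and motifs were chosen with earlier results of these data known. The text names the 10 members with the largest difference, the 5 with the largest ratio of the lowest pLN to the highest mLN library, the genes with the most members, up to 3 genes of each list by largest difference, peaks next to each threshold, members called by a housing test, and the promoters of the genes so named, of which the text gives a part. Further list genes, the members with the smallest housing p-values and the genes with both a promoter and a member were picked after their values were seen. Alternatives were other pseudocounts, distances, thresholds, scalings, low-level filters, motif windows, limma voom, a replicate block and leaving out each library in turn.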

Additional observations from a re-analysis of the deposited data

Results flagged for a closer look

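Dixon's criterion for a library far from the others was applied to the libraries of each location at 41 members described in the text and for 2 summaries over all members. Chance alone meets it in about 1 set of 20 where sets are not chosen by their values. The members were chosen by these same values, so this rate need not hold here. Of the 86 sets, 4 met it, which is no more than about that rate, and they are given as a description. At the member near Tll1 (chr8:64397947-64398212), mLN-SPF 2 was at 20.1 RPKM and the other mLN libraries were between 0 and 5.30 RPKM. At the member near Cldn1 (chr16:26247865-26248525), pLN-SPF 3 was at 24.2 RPKM and the other pLN libraries were between 40.8 and 46.7 RPKM. At the member near Adamts5 (chr16:85929638-85929957), mLN-SPF 2 was at 15.5 RPKM and the other mLN libraries were between 0.561 and 6.08 RPKM. At the member near Erg, mLN-SPF 2 was at 18.0 RPKM and the other mLN libraries were between 2.83 and 5.39 RPKM. The libraries mLN-SPF 2 and pLN-SPF 3 also set the boundary between the locations most often over all members, in 709 and 619 of them. The cause was not tested.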

How the results depend on the processing

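The number of members, 1650, became 2984 with a difference of at least 0.5, 428 with at least 1.5, and 2656 without both mLN libraries numbered 2 (chosen after seeing the data). It lay between 1532 and 2103 with each library left out in turn and between 1478 and 1825 under the other pseudocounts, distances, TSS sets, scalings and filters. The differences of the 11 members with the largest difference or ratio moved by less than the spread between libraries in all 165 alternatives computed for them.

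No member was called for housing under any setting but limma voom in pLN (1). Among all peaks, housing calls in pLN were 3, against 5 with a pseudocount of 0.5, 51 with voom and 5 with the replicate block, and in mLN they were 1, against 2 with voom and 2 with the replicate block. With each library left out they ran from 2 to 7 in pLN, 0 to 3 in mLN and 0 to 1 for the interaction. Median housing differences of members with a library left out ran from -0.18 to -0.10 in pLN and from -0.25 to 0.08 in mLN, so the direction in mLN depended on the library, being -0.25 without mLN-SPF 2, -0.21 without mLN-GF 3 and between 0.01 and 0.08 without any other mLN library. In mLN it was also 0.07 after quantile normalization. Replicate numbers are shared between groups by name, and the main fit did not use them. Deviations from group means correlated at -0.15 to 0.06 between libraries numbered 1. The values were 0.20 to 0.27 for number 2 and -0.10 to 0.23 for number 3. Between differently numbered libraries they ran from -0.30 to 0.21, and whether same-numbered libraries belong together was not tested. The replicate block gave median differences of -0.25 in pLN and -0.05 in mLN, against -0.14 and -0.05 without it.

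The share of members with the NF-kB consensus was 10.8% over whole peaks (5.77% of distal peaks) and 6.30% in 200 bases (3.03%), and the share with the NFI part site was 49.0% (35.2%) and 27.6% (18.7%). Other distal peaks of the same GC content held the NFI part site in 26%. Of the remaining alternatives of motif shares and gene lists, 25 values moved, and those of the gene lists are given beside them. A share over whole peaks grows with peak width.

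Depth limits single mLN values, and 5 pLN against 6 mLN libraries, with 2 in pLN-GF, limit the housing contrasts. Peaks share genes and regions and are not independent, nearest genes are an assignment by distance, and bulk libraries do not separate cell composition from accessibility per cell.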

Other observations

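Members also lay near genes of lipid mediators. Of 25 retinoic acid and prostaglandin genes with a distal peak, 7 had a member (28%), against 14.2% of all such genes. Members were 10 of their 124 peaks (8.06%), against 6.04% of all distal peaks. With any TSS within 100 kb of a member 2 of 32 genes had one. Of these 124 peaks 14 were mLN-open (11.3%), against 9.24% of all distal peaks. The member near Rarb, a retinoic acid receptor, was at 28.4 ± 4.01 RPKM in pLN and 7.66 ± 0.83 RPKM in mLN (SD, n = 5 and 6, here and below), and that near Cyp26b1, which degrades retinoic acid, at 23.3 ± 8.98 RPKM in pLN and 6.57 ± 4.65 RPKM in mLN. The prostaglandin E receptor genes Ptger2, Ptger3 and Ptger4 had members with differences of 1.49, 1.41 and 1.07, picked like the next ones after their values were seen.

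Of 33 chemokine, cytokine and leukocyte adhesion genes, 8 had a member (24.2%), against 14.2% of all genes with a distal peak. Members were 14 of their 154 peaks (9.09%), against 6.04% of all distal peaks. Of these peaks 9 were mLN-open (5.84%), against 9.24% of all distal peaks. With any TSS within 100 kb of a member 14 of 38 genes had one. Among the 8 genes were Kitl (difference 1.48), the gene of stem cell factor, and Ccl2 (1.15), a monocyte chemokine. The distal peak nearest the Ccl2 TSS was mLN-open with a difference of -2.32. Genes of AP-1, KLF, NFI, EBF and RUNX factors had members at 7 of 36 genes, with 7 of 255 peaks (2.75%), and mLN-open peaks at 19. The member near Klf10 was at 72.5 ± 11 RPKM in pLN and 23.3 ± 10.5 RPKM in mLN, and those near Klf4 and Bach2 had differences of 1.51 and 1.40. Of 38 FGF, hedgehog and Notch genes, 8 had a member, with 11 of 256 peaks (4.30%), below the 6.04% of all distal peaks, 28 of these peaks were mLN-open, and with any TSS within 100 kb of a member 5 of 40 genes had one. Near Gli2, an effector of hedgehog signaling, a member was at 36.7 ± 11.4 RPKM in pLN and 12 ± 4.24 RPKM in mLN. Of 31 nuclear receptor and forkhead genes, 6 had a member, with 9 of 186 peaks (4.84%) and the largest difference near Esrrg (1.70), and of 20 Hippo and actin regulator genes, 3 had one, near Wwc1 (1.59), Vgll2 (1.31) and Ccn2 (1.26). SOX, TCF and bHLH genes had members at 6 of 27 genes, with 11 of 169 peaks (6.51%), including Myc (1.42), and at 3 of 27 with any TSS within 100 kb of a member. Genes named in this section that also had mLN-open peaks were Bach2, Ccl2, Ccn2, Klf4, Myc, Ptger3 and Ptger4.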
